A study of Mus musculus with 18 samples.

Results

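The 10 genes described here form the thermogenic program of brown fat: Ucp1, Cidea, Elovl3, Ppargc1a, Dio2, Prdm16, Zic1, Ebf2, Otop1 and Cpt1b. They were taken by name from the 54281 genes of a count table made from whole mouse aorta, and all 10 were found there. RNA had been sequenced from the descending aorta, with its intimal, medial and adventitial layers, of 18 male C57BL/6 mice, each mouse giving 1 library. The 6 HGPS mice carried the LMNAG609G knock-in, homozygous per the study, which makes the mouse express progerin, the truncated lamin A of Hutchinson-Gilford Progeria Syndrome, in every tissue that expresses Lmna, and were 64 to 75 days old. The 6 young wild-type mice (2-mo WT) were 62 days old, apart from replicate 6 at 95 days, and the 6 aged wild-type mice (24-mo WT) were 609 to 762 days old. HGPS is therefore a whole-body model, with progerin in fat and vessel alike. The aortas were dissected between arch and diaphragm, perfused and cleaned, and how much fat stayed on each is not given in the sources used here.

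Brown adipocytes burn fatty acids to make heat. Cold activates sympathetic nerves, whose noradrenaline acts on beta-adrenergic receptors and raises cAMP, and this both releases fatty acids from lipid droplets and induces Ucp1, the mitochondrial carrier that lets protons bypass ATP synthase. The thoracic aorta lies in a sheath of perivascular fat that in mice closely resembles brown fat. The 10 genes fall into effectors of heat production and fat burning (Ucp1, Cidea, Elovl3, Cpt1b, Otop1), the cold-induced regulators Ppargc1a and Dio2, and transcription factors of brown fat identity (Prdm16, Ebf2, Zic1). In bulk RNA, fewer cells of a type and less RNA per cell cannot be told apart.

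Of the 10 members, 6 had a promoter in RefSeq (GRCm38.p6, from 250 bases before to 50 after the start of transcription). Those of the uncoupling protein and of the pair of cold-induced regulators are shown because these 3 genes differ in how they varied among the mice below. Capitals mark the nuclear receptor half-site AGGTCA and the cAMP response element TGACGTCA or its half-site TGACG, on either strand. The windows are chr8:83290098-83290397 (+), chr5:51567676-51567975 (−) and chr12:90738989-90739288 (−), each written along the strand of its gene. The RefSeq start of Dio2 lies upstream of the first base that GENCODE M21 gives to the gene.
Ucp1: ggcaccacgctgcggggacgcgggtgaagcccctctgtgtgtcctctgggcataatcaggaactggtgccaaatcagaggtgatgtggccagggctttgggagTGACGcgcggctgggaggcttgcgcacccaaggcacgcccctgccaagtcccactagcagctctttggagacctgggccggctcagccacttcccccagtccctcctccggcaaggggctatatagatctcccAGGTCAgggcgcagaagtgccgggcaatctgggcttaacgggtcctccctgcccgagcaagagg
Ppargc1a: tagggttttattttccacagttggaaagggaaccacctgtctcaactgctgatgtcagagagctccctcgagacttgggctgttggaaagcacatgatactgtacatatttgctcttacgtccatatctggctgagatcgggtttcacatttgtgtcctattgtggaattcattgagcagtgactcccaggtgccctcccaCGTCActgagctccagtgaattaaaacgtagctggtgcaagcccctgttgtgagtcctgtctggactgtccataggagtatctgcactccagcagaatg
Dio2: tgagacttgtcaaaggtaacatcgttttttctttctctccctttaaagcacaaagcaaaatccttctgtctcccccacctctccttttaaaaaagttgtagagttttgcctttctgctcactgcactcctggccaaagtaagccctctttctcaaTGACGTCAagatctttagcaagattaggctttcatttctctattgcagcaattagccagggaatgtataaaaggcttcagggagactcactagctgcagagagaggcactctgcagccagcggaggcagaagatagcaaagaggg

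The Ucp1 window held AGGTCA with its first base at −14 from the start and TGACG at −147. The Dio2 window held the full cAMP response element TGACGTCA at −95 and a TATA box (TATAAA) at −30, and the Ppargc1a window held the half-site TGACG on the opposite strand at −49. TGACGTCA was found in 1.79% of the 32851 mouse promoters of this length, TGACG, which the full element contains, in 20.8%, AGGTCA in 16.3% and TATAAA in 13.6%, all searched on both strands. None of AGGTCA, TGACGTCA and TGACG was found in the windows of Prdm16, Zic1 and Otop1. The longer TCAAGGTCA, the site of estrogen-related receptors, was in none of the 6 windows and in 0.423% of all. These matches describe letters in a short window, and the enhancers of Ucp1 lie further upstream.

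The question was how the thermogenic genes of the aorta differed in progeria and in normal ageing. In HGPS aortas 7 of the 9 members that could be tested were higher than in 2-mo WT aortas and none was lower. Between 24-mo and 2-mo WT aortas none of the 9 was called, and only 11.7% of all genes tested were. The 5 effectors rose between 3.36- and 9.54-fold, Ppargc1a 3.63-fold and Dio2 1.90-fold. Prdm16 and Ebf2 did not pass the test, and Zic1 was near 0 in every group. A gene was called at an adjusted p below 0.05 (edgeR quasi-likelihood test, Benjamini-Hochberg over the 15210 genes tested). By that rule 43.2% of all genes were called between HGPS and 2-mo WT, 22% as higher and 21.2% as lower, and 11.7% between 24-mo and 2-mo WT, 6.29% as higher and 5.38% as lower. At 24 mo 1 of the 9 members, Dio2, had an unadjusted p below 0.05, and DESeq2 called 1 and limma-voom 0. The median log2 fold change of the 9 members was 1.86, against 0.0026 over all genes tested, and at 24 mo it was −0.24, against 0.0083.

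The libraries held 12413229 to 30844775 counts, and no pair of replicates agreed within counting noise. Lmna itself was at 577 ± 82.3 CPM (the count as a share of its library after TMM scaling, mean ± SD, n = 6) in HGPS, 416 ± 60.7 in 2-mo WT and 418 ± 73.2 in 24-mo WT, but gene counts cannot show a point mutation and so do not check the genotype. Smooth muscle markers summed to 20980 to 29240 CPM in HGPS, 32160 to 41100 in 2-mo WT and 33320 to 38020 in 24-mo WT. Every library thus carried the label's tissue. In HGPS 8 of the 10 markers were lower than in 2-mo WT, against 21.2% of all genes tested.

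**Figure D1:**
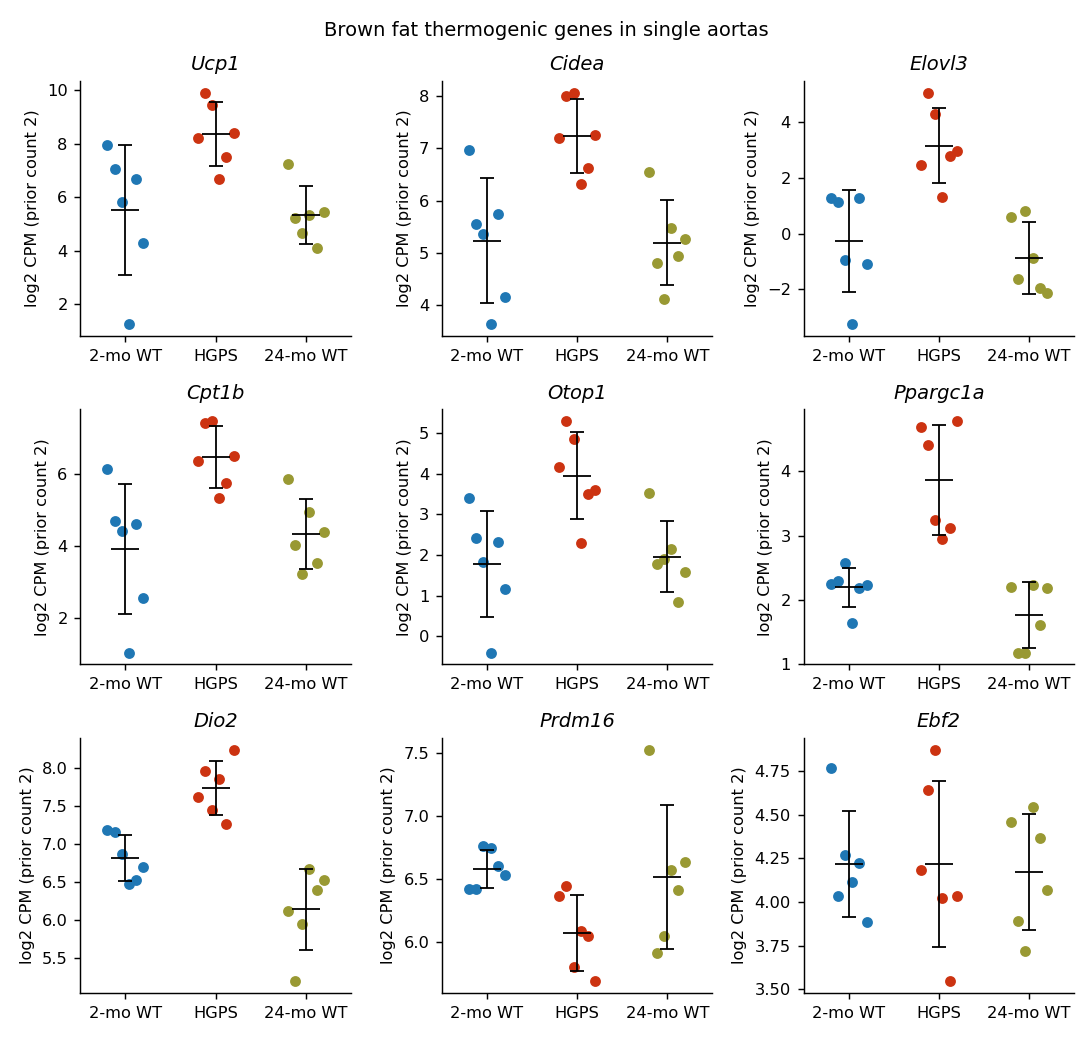
Expression of the 9 members that passed the count filter, as log2 CPM (prior count 2), with 1 point per mouse and the mean ± SD of each group of 6 in black. The HGPS points sit above all 2-mo WT points for Elovl3, Ppargc1a and Dio2, overlap them for the other effectors, and overlap or lie below them for Prdm16 and Ebf2.

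Ucp1 (ENSMUSG00000031710, chr8:83290352-83298452, + strand, GRCm38) encodes the uncoupling protein that defines brown and beige fat. Its levels in the 6 HGPS aortas were 294, 962, 706, 103, 182 and 340 CPM. In the 2-mo WT aortas they were 250, 134, 57.1, 2.27, 102 and 19.3 CPM, and in the 24-mo WT aortas 153, 37.3, 25.3, 39.8, 17.0 and 43.3 CPM. The highest 2-mo WT mouse was thus 110-fold above the lowest, 4 of the 6 HGPS mice exceeded every 2-mo WT mouse, and HGPS replicates 4 and 5 fell within the young wild-type range. The group means were 431 ± 333, 94.2 ± 91.0 and 52.6 ± 50.1 CPM (SD, n = 6 each). The log2 fold change of HGPS against 2-mo WT was 2.19 ± 0.74 (SE, edgeR adjusted p = 0.0222), and without HGPS replicate 2 it was 1.78 with an adjusted p of 0.0625, so this call rested on that mouse. Between 24-mo and 2-mo WT the log2 fold change was −0.85 ± 0.72 (edgeR adjusted p = 0.513), and it was −1.54 without 24-mo WT replicate 1 (edgeR adjusted p = 0.196) and −0.0848 with limma-voom. In HGPS against 2-mo WT limma-voom gave 3.25 (adjusted p = 0.00234).

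Cidea (chr18:67343604-67367785, + strand) encodes a lipid droplet protein of brown fat. It ranged from 79.1 to 268 CPM with a median of 149 in HGPS, from 12.3 to 125 with a median of 43.95 in 2-mo WT, and from 17.3 to 94.0 with a median of 34.4 in 24-mo WT. The HGPS and 2-mo WT ranges overlapped through 2 HGPS mice and the highest wild-type mouse. The log2 fold change was 1.75 ± 0.48 (edgeR adjusted p = 0.0061), and −0.24 ± 0.47 at 24 mo (edgeR adjusted p = 0.811).

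Elovl3 (chr19:46131897-46135694, + strand) encodes a fatty acid elongase that is strongly induced in brown fat by cold. It was scarce, at 2.38 to 33.5 CPM with a median of 7.33 in HGPS, 0 to 2.35 with a median of 1.25 in 2-mo WT, and 0.123 to 1.67 with a median of 0.326 in 24-mo WT. All 6 HGPS mice lay above all 2-mo WT mice, although the margin was narrow, with the lowest HGPS mouse at 2.38 CPM (76 counts or more in every HGPS library) and the highest wild-type mouse at 2.35 CPM. Its log2 fold change of 3.25 ± 0.69 was the largest of the members (edgeR adjusted p = 0.000961), and limma-voom gave 3.99 (adjusted p = 0.0061). A count of 0, found in 1 of the 2-mo WT libraries, allows up to 3 counts, and this covers counting error only.

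Cpt1b (chr15:89416405-89425863, − strand) encodes the muscle-type carnitine palmitoyltransferase that admits long-chain fatty acids to mitochondria and is shared by brown fat, heart and skeletal muscle. It ranged from 39.9 to 177 CPM with a median of 86.3 in HGPS, from 1.95 to 69.9 with a median of 22.9 in 2-mo WT, and from 9.28 to 58.3 with a median of 18.5 in 24-mo WT. The log2 fold change in HGPS was 2.02 ± 0.59 (edgeR adjusted p = 0.00953), with 4 of 6 HGPS mice above every 2-mo WT mouse. It was 2.67 without 2-mo WT replicate 1 (edgeR adjusted p = 0.00135) and 2.74 with limma-voom (adjusted p = 0.000605).

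Otop1 (chr5:38275972-38304217, + strand) encodes a proton channel of brown fat and of taste cells. It ranged from 4.81 to 39.1 CPM with a median of 14.9 in HGPS, from 0.649 to 10.5 with a median of 4.17 in 2-mo WT, and from 1.68 to 11.3 with a median of 3.46 in 24-mo WT. In all, 5 of 6 HGPS mice exceeded every 2-mo WT mouse, and the log2 fold change was 2.04 ± 0.53 (edgeR adjusted p = 0.00437). Neither gene differed at 24 mo beyond its error, with log2 fold changes of −0.05 ± 0.59 for Cpt1b (0.61 without 2-mo WT replicate 1) and −0.02 ± 0.55 for Otop1.

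Ppargc1a (chr5:51454250-51567726, − strand) encodes PGC-1alpha, the cold-induced coactivator of mitochondrial biogenesis and of Ucp1. Its HGPS levels were 25.9, 21.1, 9.33, 7.63, 8.61 and 27.4 CPM, whereas the 2-mo WT mice lay between 3.00 and 5.87 CPM (median 4.62) and the 24-mo WT mice between 2.15 and 4.58 CPM (median 3.70). Every HGPS mouse lay above every wild-type mouse, while the wild-type groups overlapped each other. The wild-type mice varied little, with a range of 1.96-fold at 2 mo. HGPS replicates 1, 2 and 6 formed an upper set and replicates 3, 4 and 5 a lower set, an order that differed from Ucp1, for which replicate 3 was second highest. The log2 fold change was 1.86 ± 0.32 (edgeR adjusted p = 0.000131).

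Dio2 (chr12:90724552-90738438, − strand) encodes the deiodinase that makes active thyroid hormone inside brown adipocytes. It is also expressed in cells other than adipocytes. Its HGPS levels were 197, 249, 175, 231, 154 and 303 CPM, the 2-mo WT mice lay between 88.3 and 145 CPM (median 110), and the 24-mo WT mice between 36.3 and 102 CPM (median 76.5). Every HGPS mouse was above every wild-type mouse of either age. The log2 fold change was 0.93 ± 0.21 (edgeR adjusted p = 0.00135). At 24 mo it was −0.63 ± 0.21, the only member near the threshold there (unadjusted p = 0.00643, edgeR adjusted p = 0.0534), with 4 of the 6 aged mice below every young one, and it passed the threshold with DESeq2 (adjusted p = 0.0174).

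Groups that did not overlap were thus found for 3 of the 9 members between HGPS and 2-mo WT, all higher in HGPS, against 11% of all genes tested. The study's stricter cut-offs, a 1.5-fold change with an adjusted p below 0.001, were set there on DESeq2 and are applied here to the edgeR fit. By them 2 members were called, Elovl3 and Ppargc1a, against 5.27% of all genes as higher. With DESeq2 Dio2 met them too (log2 fold change 0.93, DESeq2 adjusted p = 2.46e-05).

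No factor of brown fat identity was called as higher in HGPS. Prdm16 (chr4:154316125-154636873, − strand), which encodes the zinc finger factor that commits precursors to the brown lineage and is also expressed in vascular cells, ranged from 51.3 to 86.8 CPM with a median of 67.0 in HGPS, from 85.3 to 108 with a median of 94.7 in 2-mo WT, and from 60.1 to 184 with a median of 89.9 in 24-mo WT. In HGPS 5 of 6 mice lay below every 2-mo WT mouse, and the log2 fold change was −0.49 ± 0.21 (edgeR adjusted p = 0.0602). It was past the threshold with DESeq2 (adjusted p = 0.0362), with limma-voom (adjusted p = 0.0162) and in a fit of these groups alone (edgeR adjusted p = 0.00349). Ebf2 (chr14:67233292-67430918, + strand), which encodes a factor that marks brown and beige precursors, ranged from 11.6 to 29.2 CPM in HGPS, 14.7 to 27.1 in 2-mo WT and 13.1 to 23.2 in 24-mo WT. Its groups overlapped throughout, with medians of 17.2, 17.9 and 18.6 CPM, and the log2 fold change in HGPS was 0.03 ± 0.20 (edgeR adjusted p = 0.908).

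Zic1 (chr9:91358058-91365810, − strand), which encodes a factor typical of interscapular brown fat, had 11 counts in all 18 libraries together and no more than 3 in any. It was at 0 in 4 HGPS, 3 of the 2-mo WT and 5 of the 24-mo WT libraries, and it did not pass the count filter. Mean log2 CPM differed by −0.07 between HGPS and 2-mo WT (2-sided exact permutation test, p = 0.848, where the smallest possible was 0.00216) and by −0.15 between 24-mo and 2-mo WT (p = 0.697, exact permutation test). No difference was detectable at this depth. Lhx8, another gene of interscapular brown fat, was also too scarce to test, with 29 counts over the HGPS, 21 over the 2-mo WT and 31 over the 24-mo WT libraries.

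Per kilobase of annotated exon, Ucp1 and Cidea had the highest mean levels of the members in each group. In HGPS Ucp1 (264 ± 204 CPM per kb, SD, n = 6) and Cidea (150 ± 71.1) had overlapping ranges. Dio2 (37.5 ± 9.37) and Cpt1b (30.4 ± 17.4) followed, within each other's spread. Prdm16 (7.33 ± 1.51), Elovl3 (6.39 ± 6.00) and Otop1 (5.52 ± 3.72) could not be ordered beyond their spread, nor could Ebf2 (2.80 ± 0.93) and Ppargc1a (2.53 ± 1.39), and Zic1 was last at 0.0063. In 2-mo WT the means were 57.6 ± 55.6 for Ucp1, 44.3 ± 36.3 for Cidea and 19.7 ± 4.20 for Dio2, and 10.3 ± 1.09 for Prdm16 and 7.39 ± 7.18 for Cpt1b, and neither the first 3 nor the last pair could be ordered beyond their spread. In 2-mo WT replicate 4, for instance, Dio2 (15.2) exceeded both Cidea (11.0) and Ucp1 (1.39). In 24-mo WT Cidea (37.7 ± 24.3) and Ucp1 (32.2 ± 30.6) were level within their spread.

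HGPS and 24-mo WT aortas were also compared directly, in the same fit and with the same HGPS mice. In this comparison 7 of 9 members were higher in HGPS, against 23.8% of all genes, and 1 was lower, against 23.6%. The log2 fold changes were 3.04 ± 0.77 for Ucp1 (3.73 without 24-mo WT replicate 1), 1.99 ± 0.48 for Cidea, 4.20 ± 0.75 for Elovl3, 2.07 ± 0.59 for Cpt1b and 2.07 ± 0.53 for Otop1. Those of Ppargc1a (2.25 ± 0.32) and Dio2 (1.56 ± 0.21, edgeR adjusted p = 7.82e-06) rested on groups that did not overlap, as did that of Elovl3, against 10.9% of all genes that stood apart with HGPS higher. These 3 also passed the stricter cut-offs, against 6.02% of all genes as higher. Prdm16 was lower by a log2 fold change of −0.52 ± 0.21 (edgeR adjusted p = 0.0415), a call that was lost under 12 of 22 alternatives, among them the one without 24-mo WT replicate 1, the aged mouse with 184 CPM, at −0.25 (edgeR adjusted p = 0.163).

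**Figure D2:**
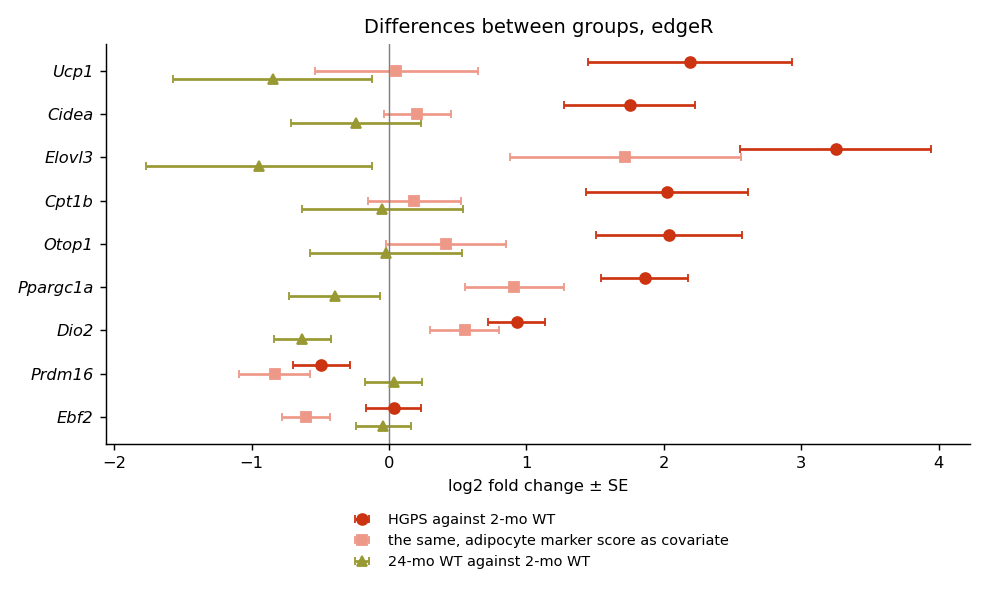
Log2 fold change ± SE of 9 members for HGPS against 2-mo WT (circles), for the same comparison with the mean level of 17 adipocyte markers as a covariate (squares) and for 24-mo WT against 2-mo WT (triangles). With the covariate Ucp1 lies at 0.05 and Ppargc1a at 0.91, while Prdm16 and Ebf2 lie below 0.

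The effectors varied together from mouse to mouse. Among mice of the same group, as deviations from the group mean of log2 CPM over 18 mice, Ucp1 followed Cpt1b (Pearson r = 0.968, Spearman rho = 0.963), Otop1 (r = 0.947, rho = 0.909), Cidea (r = 0.914, rho = 0.940) and Elovl3 (r = 0.840, rho = 0.721). The permutation p was 1e-05 for r with each of the first 3, the smallest that 100000 permutations can give, and 0.00012 with Elovl3, or 4e-05 and 0.000288 after adjustment over the 12 relations computed. Without the pair of mice farthest from the median of Ucp1 the values of r were 0.942, 0.929, 0.898 and 0.755.

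Ucp1 was less closely related to the regulators. With Ppargc1a r was 0.428 (rho = 0.447, permutation p = 0.0317 and 0.0439, adjusted p = 0.0544 and 0.0752), and with Dio2 r was 0.284 (rho = 0.329, permutation p = 0.212 and 0.186, adjusted p = 0.282 and 0.279), falling to 0.088 without the farthest pair. With Ebf2 r was 0.507 (rho = 0.598, permutation p = 0.025 and 0.0111, adjusted p = 0.0501 and 0.0223), and with Prdm16 r was 0.150 (rho = 0.108, permutation p = 0.431 and 0.659, adjusted p = 0.517 and 0.719). The differences between these coefficients were not tested.

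Single mice were therefore high or low for many members at once. Of the 9 members, 2-mo WT replicate 1 was the highest young wild-type mouse for 6 and replicate 4 the lowest for 7. HGPS replicate 2 was the highest of its group for 4 and replicate 4 the lowest for 6, and 24-mo WT replicate 1 was the highest aged mouse for 5.

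General adipocyte markers moved with the members. The list held 17 genes of adipocytes in general or of white fat, such as Adipoq, Fabp4, Plin1 and Retn. Brown fat shares the markers of adipocytes in general, and Nat8l on the list is also a gene of brown fat. In HGPS 16 of the 17 were higher than in 2-mo WT, against 22% of all genes tested. Nat8l was higher by a log2 fold change of 1.78 ± 0.49 (edgeR adjusted p = 0.00631). The median log2 fold change of the 17 markers was 1.56 against 0.0026 over all genes. Fabp4, the fatty acid carrier of adipocytes, rose by a log2 fold change of 1.97 ± 0.38 (edgeR adjusted p = 0.000374) and Adipoq, which encodes adiponectin, by 1.74 ± 0.39 (edgeR adjusted p = 0.00141). Lep, which encodes the hormone leptin of white fat, was the exception, at 0.52 ± 0.65 (edgeR adjusted p = 0.554). The 17 markers summed to 1690 to 5017 CPM in HGPS, 622 to 2111 in 2-mo WT and 590 to 1878 in 24-mo WT. At 24 mo 1 of them was called, Lep, with a log2 fold change of 2.74 ± 0.64 (edgeR adjusted p = 0.00727). Of all genes tested 11.7% were called at that age, 6.29% as higher. No thermogenic member was called there with edgeR, although Dio2 was with DESeq2 (adjusted p = 0.0174). Whether the members and the adipocyte markers differed from each other at 24 mo was not tested. Among mice of the same group, Ucp1 followed the mean of these markers (r = 0.781, rho = 0.812, permutation p = 0.0001 and 8e-05, adjusted p = 0.000288 and 0.00024, and r = 0.735 without the farthest pair).

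**Figure D3:**
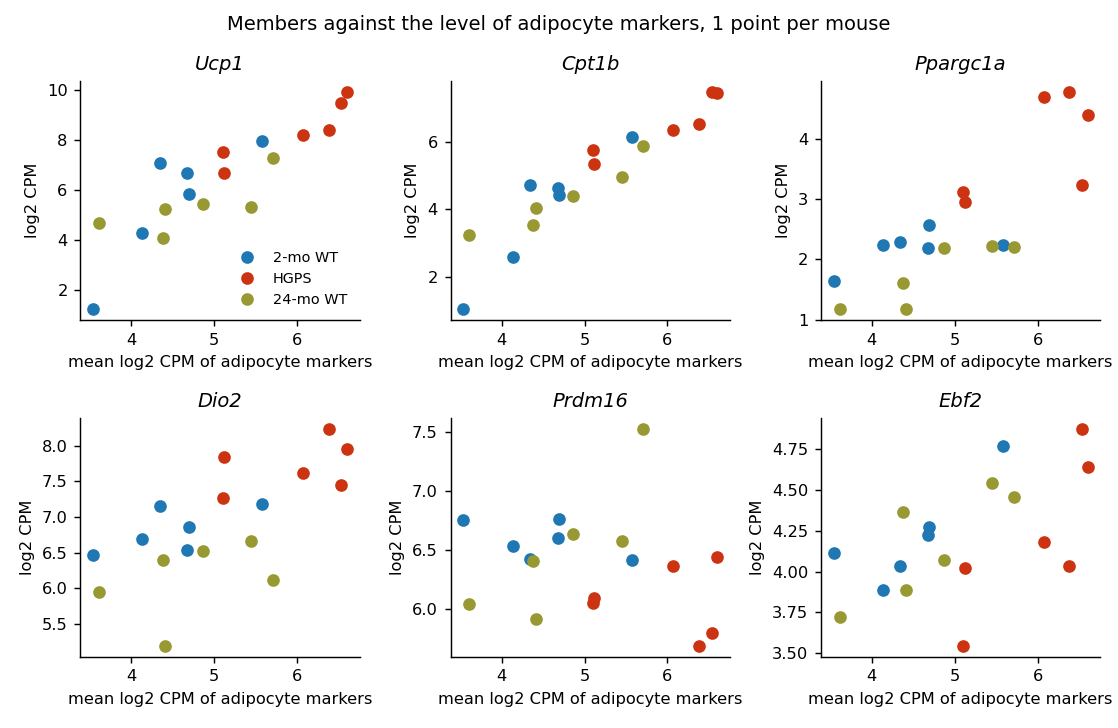
Log2 CPM of 6 members against the mean log2 CPM of 17 general adipocyte markers, with 1 point per mouse coloured by group. Ucp1 and Cpt1b are higher in mice with more marker RNA, although 2-mo WT replicate 4 and 24-mo WT replicate 3, at marker means of 3.54 and 3.61, had 2.27 and 25.3 CPM of Ucp1. The HGPS points of Ppargc1a lie above those of wild-type mice, including at marker levels of 5.10 to 5.71 that the groups share, and Prdm16 shows no such climb.

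With the mean of the adipocyte markers entered as a covariate, the log2 fold changes in HGPS against 2-mo WT were 0.05 ± 0.59 for Ucp1, 0.18 ± 0.34 for Cpt1b, 0.21 ± 0.24 for Cidea and 0.41 ± 0.44 for Otop1, with edgeR adjusted p of 0.957, 0.717, 0.556 and 0.506. Larger differences were left for Elovl3 (1.72 ± 0.84, edgeR adjusted p = 0.134), Ppargc1a (0.91 ± 0.36, edgeR adjusted p = 0.0648) and Dio2 (0.55 ± 0.25, edgeR adjusted p = 0.104), none of which was called. The 2 members called in that fit were lower, Ebf2 at −0.60 ± 0.17 (edgeR adjusted p = 0.0144) and Prdm16 at −0.83 ± 0.26 (edgeR adjusted p = 0.0219), against 14.4% of all genes as lower and 14.6% as higher. The marker mean itself was higher in HGPS, at 5.97 against 4.49 log2 CPM, and the mice of both groups shared only the range from 5.10 to 5.58. It also holds genes that brown fat expresses, such as Nat8l.

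Against 24-mo WT mice the same covariate left Ppargc1a at 1.49 ± 0.33 (edgeR adjusted p = 0.00153), Dio2 at 1.25 ± 0.23 (edgeR adjusted p = 0.000401), Elovl3 at 2.74 ± 0.86 (edgeR adjusted p = 0.0167) and Cidea at 0.61 ± 0.24 (edgeR adjusted p = 0.0492), all still called as higher. Ucp1 was at 1.05 ± 0.61 (edgeR adjusted p = 0.177), Otop1 at 0.61 ± 0.42 and Cpt1b at 0.42 ± 0.33. Ebf2 was at −0.46 ± 0.16 (edgeR adjusted p = 0.0292) and Prdm16 at −0.76 ± 0.23 (edgeR adjusted p = 0.012), both lower. In this fit 19.4% of all genes were called as higher and 20.2% as lower. HGPS and 24-mo WT mice shared only the marker range from 5.10 to 5.71. The marker mean also holds Lep, which was itself lower in HGPS than in 24-mo WT (−2.22 ± 0.60).

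Relative to Adipoq, per kilobase, Ucp1 was at a median ratio of 1.47 in HGPS (range 0.871 to 3.85), 1.12 in 2-mo WT (0.0875 to 2.77) and 0.585 in 24-mo WT (0.299 to 1.30). Cidea was at 1.18, 0.958 and 0.755, with overlapping ranges. For Ppargc1a the medians were 0.0197, 0.0204 and 0.0118, and for Dio2 0.260, 0.493 and 0.287.

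Skeletal muscle markers summed to 101 to 170 CPM in HGPS and 86.7 to 155 in 2-mo WT. Most of this was Casq1, at 101 and 107 CPM on average (log2 fold change −0.08 ± 0.16), so the sums mainly follow that gene. The other markers were at low levels, with Eno3 the highest at 4.8 and 5.3 CPM. Of the 18 markers 11 could be tested, of which 3 were higher, against 22% of all genes tested, and 2 lower, against 21.2%. The higher ones were Mb (log2 fold change 2.80, edgeR adjusted p = 0.000593, on 89 counts in HGPS and 9 in 2-mo WT), Myl1 (2.05, edgeR adjusted p = 0.0019) and Tnnt3 (2.00, edgeR adjusted p = 0.000139). The lower ones were Ckm (−1.08, edgeR adjusted p = 0.000314) and Tnnt1 (−0.64, edgeR adjusted p = 0.019). The defining fast myosins Myh1, Myh2 and Myh4 had 31, 15 and 29 counts over the 6 HGPS libraries and 3, 2 and 2 over the 2-mo WT libraries. With the mean of the tested markers as a covariate 4 members were called as higher in HGPS against 2-mo WT. The calls of Ucp1 (1.79, edgeR adjusted p = 0.115), Cidea (1.34, edgeR adjusted p = 0.0756) and Cpt1b (1.56, edgeR adjusted p = 0.0935) were lost, and 14.1% of all genes were called as higher in that fit. Among mice of the same group Ucp1 was at r = 0.157 with this mean (rho = 0.280, permutation p = 0.616 and 0.297, adjusted p = 0.672 and 0.356).

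The other genes of the thermogenic pathway gave 58 testable genes of 63. In HGPS against 2-mo WT 34 were higher, against 22% of all genes tested, 8 were lower, against 21.2%, and 16 did not pass. Their median log2 fold change was 0.83 against 0.0026 over all genes. The list is not separate from the general adipocyte markers, whose median was 1.56. Lpl is on both lists, and others such as Pparg, Lipe and Pnpla2 are not confined to brown fat. The part of adipocyte RNA in the differences of this list was not tested. In 24-mo against 2-mo WT 1 was higher, against 6.29% of all genes tested, and 57 did not pass. The higher gene was Ffar4, which encodes a fatty acid receptor, with a log2 fold change of 0.90 ± 0.21 (edgeR adjusted p = 0.00788).

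The largest differences on the list were those of Slc27a2, Plin5, Cox7a1 and Mpzl2. Slc27a2, which encodes a fatty acid transporter, was higher by a log2 fold change of 2.42 ± 0.58 (edgeR adjusted p = 0.00245), and Plin5, which encodes a lipid droplet protein that contacts mitochondria, by 2.29 ± 0.50 (edgeR adjusted p = 0.00124). Cox7a1, a cytochrome oxidase subunit of muscle and brown fat, was higher by 2.11 ± 0.61 (edgeR adjusted p = 0.00868), and Mpzl2, which encodes a cell adhesion protein, by 2.10 ± 0.50 (edgeR adjusted p = 0.00235). The lipases Lipe (1.54 ± 0.37) and Pnpla2 (1.27 ± 0.27), which release fatty acids under beta-adrenergic drive, were also higher. So were the Ucp1 homologs Ucp2 (1.28 ± 0.21) and Ucp3 (1.85 ± 0.51). The groups did not overlap for Ucp2, as for 11% of all genes tested with HGPS higher. Ucp2 is also expressed by immune cells, and macrophage markers were higher in these aortas.

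Upstream of the lipases, Adrb3, which encodes the beta-adrenergic receptor of adipocytes, was at a log2 fold change of 0.63 ± 0.47 and did not pass (edgeR adjusted p = 0.295). Of the genes that carry its cAMP signal, Gnas, the stimulatory G protein subunit (0.27 ± 0.07, edgeR adjusted p = 0.00273), Prkaca, a catalytic subunit of protein kinase A (0.24 ± 0.08, edgeR adjusted p = 0.0278), and Pde3b, a phosphodiesterase that degrades cAMP (1.18 ± 0.15, edgeR adjusted p = 8.43e-06), were higher. Adcy3, Creb1 and Atf2 did not pass, with values of 0.15, −0.02 and −0.11. Among nuclear regulators, Pparg (1.54 ± 0.33), Cebpa (1.24 ± 0.32), Cebpb (1.07 ± 0.21), Ppara (1.05 ± 0.36) and Esrrg (1.59 ± 0.53) were higher, each with an edgeR adjusted p of 0.0253 or less. Ppargc1b, the homolog of Ppargc1a, was at 0.25 ± 0.31 (edgeR adjusted p = 0.545). Of further nuclear regulators on the list, Rxrg (1.05) and Esrra (0.49) were higher. Rxra (−0.05), Irf4 (0.86), Nrip1 (0.08), Tle3 (−0.14) and Zfp423 (−0.30) did not pass, and Zfp516, Foxc2, Thrb and Ehmt1 were lower, as given below.

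The 8 of 58 genes that were lower, where 21.2% of all genes tested were called as lower, were led by Ckb and Ntrk3. Ckb, a creatine kinase, fell by 1.18 on the log2 scale (SE 0.094, edgeR adjusted p = 5.28e-08), Gamt, an enzyme of creatine synthesis, by 0.78 and Atp2a2, the calcium pump of the endoplasmic reticulum, by 0.53. Of the 58 genes these 8 also had all HGPS values below all 2-mo WT values, against 10.9% of all genes tested. They had been picked as lower in the same comparison, so this adds no separate support. The other genes of the creatine cycle on the list were not called as lower. Gatm, the first enzyme of creatine synthesis, was higher by 0.58 ± 0.15 (edgeR adjusted p = 0.00365). Its groups did not overlap, as for 11% of all genes tested with HGPS higher. The creatine transporter Slc6a8 (−0.03 ± 0.06) and the phosphatase Alpl (0.19 ± 0.15) did not pass. Ntrk3 (−1.09 ± 0.17), Zfp516 (−0.74 ± 0.13), Foxc2 (−0.58 ± 0.09), Thrb (−0.35 ± 0.08) and Ehmt1 (−0.28 ± 0.06) were the others. Smooth muscle markers were lower in the same aortas, with Myh11, the smooth muscle myosin heavy chain, at −1.17 (edgeR adjusted p = 2.05e-07). Their part in these differences was not tested.

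**Figure D4:**
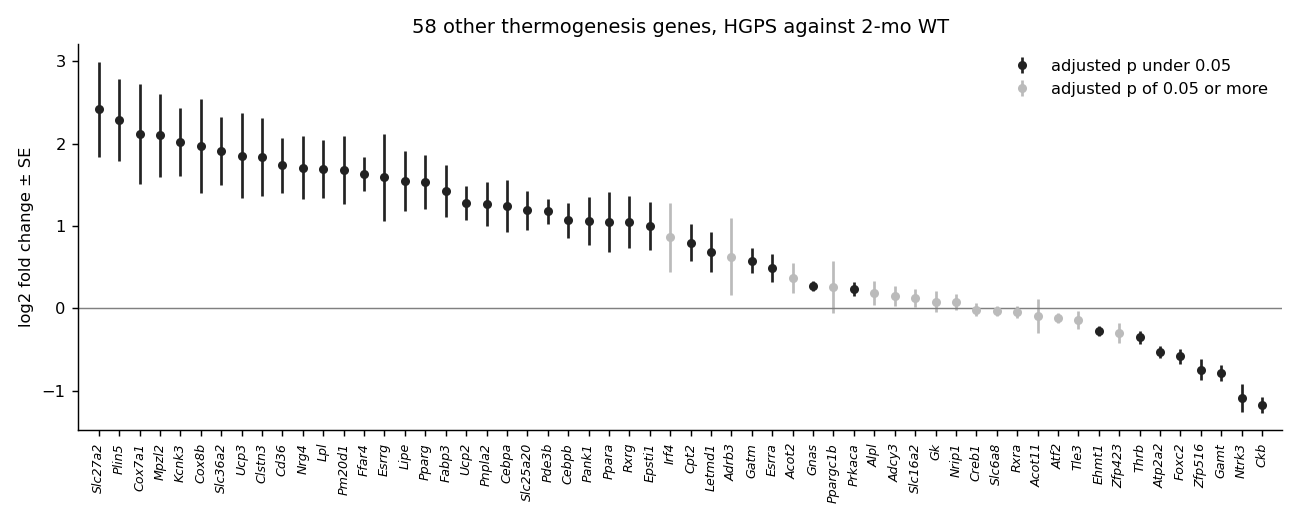
Log2 fold change ± SE in HGPS against 2-mo WT for the 58 other thermogenesis genes that could be tested, in order of size, with called genes in black. The values run from 2.42 for Slc27a2 to −1.18 for Ckb, with 34 genes called above 0 and 8 below. Of all genes tested 22% were called as higher and 21.2% as lower.

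Among the 10699 genes averaging 100 counts or more, those whose log2 CPM over the 18 mice was most like the mean of the 9 tested members were Cox8b (Pearson r = 0.983), Gpd1 (0.976), Kcnk3 (0.974), Apoc1 (0.970) and Acadl (0.968), followed by Prkar2b, Gys2, Fabp4, Cox7a1 and Eci1 at 0.957 or more. As deviations from group means the 10 coefficients ran from 0.896 for Eci1 to 0.977 for Cox8b. These coefficients are a description over 18 libraries that share their depth and composition with the members. Cox8b, a cytochrome oxidase subunit of muscle and brown fat, was at 61.5 CPM on average in HGPS, 15.3 in 2-mo WT and 12.9 in 24-mo WT. Acadl, the long-chain acyl-CoA dehydrogenase, was at 162, 83.1 and 77.7 CPM.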

How the data were processed

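Whole descending aortas of 18 male mice were measured by stranded total RNA sequencing with ribosomal RNA depletion, 1 library per mouse. The authors mapped reads with salmon to GENCODE M23 transcripts (GRCm38.p6) and summed them to genes with tximport, per the study's methods, while the submitters' processing notes name Bowtie 0.12.2. The deposited values are estimated counts per gene that the authors gave as whole numbers, not normalized. They were used as deposited, and Ensembl identifiers were named with GENCODE M21.

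The 15210 genes of 54281 that reached 10 counts in 6 or more mice were fitted with all 3 groups in edgeR 4.0.16 (TMM, quasi-likelihood test, 15 residual degrees of freedom) in R 4.3.3, with Benjamini-Hochberg adjustment over all genes tested. Counts per library total scaled to a common size (CPM) used TMM library sizes, with a prior count of 2 for log2 values. Correlations used deviations from group means, permuted within groups. Alternatives were DESeq2 1.42.0, limma-voom (limma 3.58.1), other normalizations and filters, a replicate block, marker scores as covariates and each mouse left out. Limma-voom was run with quality weights, which count atypical libraries less. Means are given ± SD, fold changes ± SE. The SE of an edgeR log2 fold change was taken as its absolute value over the square root of the F statistic. P-values of group comparisons set the difference against the spread between mice. Depth was 12413229 to 30844775 counts. Same-numbered mice of different groups did not deviate together.

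The members and lists (other thermogenesis genes, beige fat, general adipocyte, skeletal, cardiac and smooth muscle, endothelial, fibroblast, macrophage, and nerve markers) were chosen with earlier results of these data known. The text names all members, up to 4 called genes with the largest and 2 with the smallest fold changes of a list, defining markers, and the 10 genes most like the members. Further list genes (Lipe, Pnpla2, Ucp2, Ucp3, the receptor, its cAMP path and nuclear regulators, the creatine cycle, and the remaining genes that fell) were named for their roles after their values were seen. Of the 18 adipocyte symbols, 17 were found, the other being an older name of Trarg1. Overlapping genes may share reads: Cpt1b with Gm44502 on its strand (27 counts over all mice), Ppargc1a with 3 tentative models on its strand (15 to 56 counts), and, on the opposite strand, Dio2 with Gm26512 (223 counts) and Cidea with B430212C06Rik (153 counts).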

Additional observations from a re-analysis of the deposited data

How the results depend on the processing

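Between HGPS and 2-mo WT, 7 members were called when any 1 mouse was left out, all higher except without HGPS replicate 2, where 6 were higher and Prdm16 was lower, as Ucp1 lost its call. With DESeq2, limma-voom and a replicate block 8 were called, 7 higher and Prdm16 lower. With edgeR the count was 2 at the stricter cut-offs, 2 with the adipocyte score and 4 with the skeletal muscle score as covariate. Between HGPS and 24-mo WT the count of 8 became 3 at the stricter cut-offs, 7 with the block and 7 to 8 without 1 mouse. Between 24-mo and 2-mo WT the count of 0 became 1, Dio2, with DESeq2, with no count filter and with the adipocyte score, and was 0 to 1 without 1 mouse (1 without 2-mo WT replicate 4, 24-mo WT replicate 4 or 24-mo WT replicate 6, with Dio2 at −0.70, −0.75 and −0.70). Mouse numbers did not pair the groups: deviations of same-numbered mice correlated at −0.162 to 0.172 in 18 pairs, 2 of them over 0.1. Under the block Prdm16 was called against 2-mo WT (−0.52, adjusted p = 0.0481) and not against 24-mo WT (−0.47, adjusted p = 0.0659). The signs that turned belonged to log2 fold changes near 0 or to the adipocyte covariate. At 24 mo they were Cpt1b with limma-voom (0.39) and the block (0.23), Otop1 with DESeq2 (0.0103), limma-voom (0.0916) and the block (0.12), and Prdm16 with limma-voom (−0.19), the block (−0.0457) and the adipocyte score (−0.0747). In HGPS Ebf2 turned against 2-mo WT with the adipocyte (−0.60) and skeletal muscle scores (−0.0299) and against 24-mo WT with the adipocyte score (−0.46). Without 1 mouse the 24-mo values ran from −1.54 to −0.263 for Ucp1, −0.65 to 0.30 for Cidea, −0.52 to 0.61 for Cpt1b, −0.54 to 0.44 for Otop1, −0.24 to 0.14 for Prdm16 and −0.12 to 0.10 for Ebf2, and Ebf2 ran from −0.13 to 0.17 and −0.0846 to 0.19 in HGPS against 2-mo and 24-mo WT. The causes were not tested. Depth limited Zic1, and Elovl3 in wild-type mice.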

Other observations

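Markers of beige fat, the thermogenic cells that arise in white fat, were mostly scarce. Of 8 genes 4 could be tested, with a median log2 fold change of 0.11 in HGPS against 2-mo WT and −0.09 at 24 mo, against 0.0026 and 0.0083 over all genes. Tmem26 was the clearest, at 8.42 CPM on average in 2-mo WT, 4.17 in HGPS and 0.609 in 24-mo WT, and no group overlapped another. Its log2 fold change was −1.01 ± 0.29 in HGPS (edgeR adjusted p = 0.00791) and −3.80 ± 0.35 at 24 mo (edgeR adjusted p = 5.54e-07). Ear2, a ribonuclease gene also expressed by immune cells and one of a family of near-identical copies whose reads may be shared, was higher in HGPS by 2.52 ± 0.45 (edgeR adjusted p = 0.000189). Tbx1 and Slc27a1 were not called, and Tnfrsf9, Cited1, Hoxc9 and Shox2 did not pass the count filter.

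Markers of other cells also differed between HGPS and 2-mo WT. All 10 macrophage markers were higher (median log2 fold change 1.04), against 22% of all genes tested. Of 10 fibroblast markers 6 were lower (median −0.58), against 21.2% of all genes. Macrophage markers summed to 932 to 1511 CPM in HGPS against 495 to 748 CPM. Fibroblast markers summed to 7467 to 11690 CPM in HGPS against 11380 to 14380 CPM. Of 10 endothelial markers 1 was higher, of 6 tested cardiac markers 3 were higher and 1 lower, and of 4 tested nerve and Schwann cell markers 2 were higher. Th and Dbh, which define sympathetic neurons, had 4 and 0 counts over the 6 HGPS libraries. They had 0 and 0 over the 2-mo WT and 0 and 1 over the 24-mo WT libraries. Innervation cannot be read from counts this low. At 24 mo 5 fibroblast markers were lower, 1 smooth muscle and 1 cardiac marker and 2 nerve and Schwann cell markers were higher, and the 10 macrophage and 10 endothelial markers did not pass. Of all genes tested 5.38% were called as lower at that age and 6.29% as higher. Within groups Ucp1 was at r = −0.345 with the mean of smooth muscle markers (rho = −0.284, permutation p = 0.164 and 0.277, adjusted p = 0.246 and 0.356) and at r = 0.038 with that of macrophage markers (rho = −0.015, permutation p = 0.876 and 0.953, adjusted p = 0.876 and 0.953). The part of these cells in the members' differences was not tested.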
